A study of Mus musculus with 7 samples.

Results

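The expression of 46 genes for matrix proteins other than collagen chains, and for the enzymes that cut, modify or cross-link matrix, was examined in the tibialis anterior (TA) muscle of mice lacking fast myosin-binding protein C. The genes were taken by symbol from a list, with no measured value in the rule, and 45 of the 46 were among the 12239 genes measured. The list was chosen with earlier results of these data known. *Timp1* was not analysed here. The genes fell into 6 classes, with 9 basement membrane genes, 6 small leucine-rich proteoglycans, 5 elastic fibre genes, 9 adhesive and matricellular proteins, 5 measured proteases and inhibitors, and 11 collagen-modifying enzymes.

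TA is a fast-twitch muscle at the front of the lower hind limb. RNA was sequenced from 4 wild-type FVBN mice (WT, genotype FVBN/WT) and 3 *Mybpc2* knockout mice (C2-/-, genotype FVBN/C2-/-), all male and 5 to 6 months old. In C2-/- a neomycin (Neo) cassette with a LoxP site on either side stands in for exons 2 to 22 of *Mybpc2*, and no Cre driver is named. The design text speaks of 4 animals in either group, and 3 C2-/- libraries were analysed here. Nothing in the labels ties the libraries to litters or preparation days.

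Every muscle fibre is coated by a basement membrane, a sheet in which laminin trimers and collagen IV networks are joined by nidogens and by the heparan sulphate proteoglycan perlecan. Outside it lies an interstitial matrix of fibrillar collagen, made mainly by fibroblasts and fibro-adipogenic progenitors, whose fibrils are spaced by small leucine-rich proteoglycans and held beside elastic fibres. Collagen chains are hydroxylated and folded in the endoplasmic reticulum, trimmed outside the cell and then cross-linked by lysyl oxidases. Metalloproteinases cut the matrix and tissue inhibitors of metalloproteinases (TIMPs) block them. In RNA from whole muscle, fewer cells of a type and less RNA per cell cannot be told apart.

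The matrix genes that rose in C2-/- had transcripts with a median GC content of 45.8%, and those that fell 57.8%. Stretches of 120 coding bases, each the start of the longest wholly coding exon of the gene, are shown 5′ to 3′ with G and C in capitals, so that this can be seen directly. The sequences are of GRCm38 with GENCODE M21 exons. The first 3 belong to proteoglycans that rose and the last 3 to matrix genes that fell, picked as examples. *Nid2*, which rose at a transcript GC content of 54.6%, and *Lama4*, which fell at 50.03%, are not shown. The split was not particular to matrix genes. Of all genes under 50% GC 36.3% rose, and of those above 56% GC 60.6% fell.
Ogn: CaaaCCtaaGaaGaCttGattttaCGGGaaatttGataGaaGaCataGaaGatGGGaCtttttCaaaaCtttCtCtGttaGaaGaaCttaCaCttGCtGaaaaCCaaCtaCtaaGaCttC
Dcn: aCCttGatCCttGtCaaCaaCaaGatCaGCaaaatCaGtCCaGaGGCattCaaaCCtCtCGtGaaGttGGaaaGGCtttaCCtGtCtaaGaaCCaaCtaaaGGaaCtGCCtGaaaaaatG
Bgn: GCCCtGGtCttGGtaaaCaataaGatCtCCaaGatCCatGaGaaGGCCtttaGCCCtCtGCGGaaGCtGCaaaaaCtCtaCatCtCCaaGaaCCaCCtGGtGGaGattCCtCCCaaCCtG
Lama5: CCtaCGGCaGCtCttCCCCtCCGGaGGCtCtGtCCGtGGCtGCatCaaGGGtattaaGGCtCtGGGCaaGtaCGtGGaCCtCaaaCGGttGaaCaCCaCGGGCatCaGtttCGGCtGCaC
Hspg2: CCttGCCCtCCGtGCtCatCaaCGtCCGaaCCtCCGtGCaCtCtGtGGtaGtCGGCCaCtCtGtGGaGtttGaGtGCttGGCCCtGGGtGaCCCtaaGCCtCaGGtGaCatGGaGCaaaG
Tnxb: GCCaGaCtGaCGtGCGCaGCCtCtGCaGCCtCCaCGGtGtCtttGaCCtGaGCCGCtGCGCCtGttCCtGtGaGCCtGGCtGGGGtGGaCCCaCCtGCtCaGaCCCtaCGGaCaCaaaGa
The *Ogn* stretch (osteoglycin, exon 5 of 7, plus strand, chr13:49618093-49618212) held 34.2% G and C. The *Dcn* stretch (decorin, exon 4 of 8, plus strand, chr10:97506493-97506612) held 41.7%, and the *Bgn* stretch (biglycan, exon 4 of 8, plus strand, chrX:73491948-73492067) held 50%. The stretches of *Lama5* (laminin alpha 5, exon 68 of 79, minus strand, chr2:180179409-180179528) and *Hspg2* (perlecan, exon 77 of 97, plus strand, chr4:137557174-137557293) held 59.2% each. The *Tnxb* stretch (tenascin-X, exon 2 of 41, plus strand, chr17:34671055-34671174) held 64.2%. Over whole transcripts the GC content of these genes was 36.3% in *Ogn*, 42.8% in *Dcn*, 52.5% in *Bgn*, 59.9% in *Lama5*, 60.9% in *Hspg2* and 60.7% in *Tnxb*.

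Levels are in log2 CPM, the count of a gene for every 1e6 reads after scaling by the trimmed mean of M values (TMM), and are listed by replicate number. A change is the C2-/- mean minus the WT mean on the log2 scale, with its standard error (SE) from the limma fit and a p-value adjusted over all 12239 genes. A gene was past the threshold at an adjusted p under 0.05 and a fold above 1.5. *Mybpc2* itself stood at 12.68, 12.85, 12.41 and 12.51 in WT and at 1.16, 1.67 and -0.47 in C2-/-, a change of -11.82 (SE 0.41, adjusted p = 4.85e-07). The libraries of WT replicates 1 to 3 held 14929214 to 15464499 reads, whereas WT replicate 4 had 4683853 and those of C2-/- had 2613277 to 4917936. The level given by 3 reads ranged from 0.195 to 1.12 CPM. Depth and genotype cannot be told apart in the 3 deepest libraries, which were all WT. Across the 12174 genes with an annotated transcript, the change fell with transcript GC content (Spearman's rho = -0.68 across genes, which share libraries and are not independent). The main results are therefore also given after a correction for transcript GC content within each library, and the part of GC content and depth in the changes was not tested.

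Among the 45 matrix genes 10 rose in C2-/- (22.2%, against 20.2% of all genes) and 11 fell (24.4%, against 25.0% of all genes). The median change was 0.21, against -0.14 over all genes. The counts in both directions were thus close to those of the table as a whole. All C2-/- libraries lay above all WT libraries for 8 genes (22.6% of all genes did so) and below them for 9 (26.7% of all genes). With each library centred on its own median, which moved the median change of all genes from -0.14 to 0.02, 14 matrix genes rose and 9 fell, beside 24.8% and 21.2% of all genes under that scaling.

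After the GC correction 15 of the 45 passed as higher in C2-/- (33.3%, against 12.3% of all genes) and 1 as lower (2.22%, against 8.33%). The count of 15 moved with single libraries, as did that of all genes. It was 7 without WT replicate 1 (6.83% of all genes) or 2 (6.81%), 8 without WT replicate 3 (7.08%) or C2-/- replicate 2 (9.85%), 10 without C2-/- replicate 1 (11.9%) and 19 without WT replicate 4 (15.97%). The genes *Nid2*, *Dcn*, *Bgn*, *Ogn*, *Sparcl1* and *Lox* were higher in both fits and *Plod1* was lower in both, which makes 7 calls of the same direction in both. In the 7 corrected fits that left out 1 library, *Nid2*, *Dcn*, *Bgn* and *Sparcl1* were past the threshold each time. *Plod1* was past it only without C2-/- replicate 1 (-1.13), *Ogn* only without C2-/- replicate 3, and *Lox* only without WT replicate 4 or C2-/- replicate 2. The correction removed 10 of the 11 calls of a fall and 4 of the 10 calls of a rise, and it added 9 as higher. Most of the 9 were lost without WT replicate 1 or 2, where 7 genes were higher, *Nid2*, *Dcn*, *Bgn* and *Sparcl1* among them. No gene was past the threshold in opposite directions in the uncorrected and the corrected values.

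**Figure D1:**
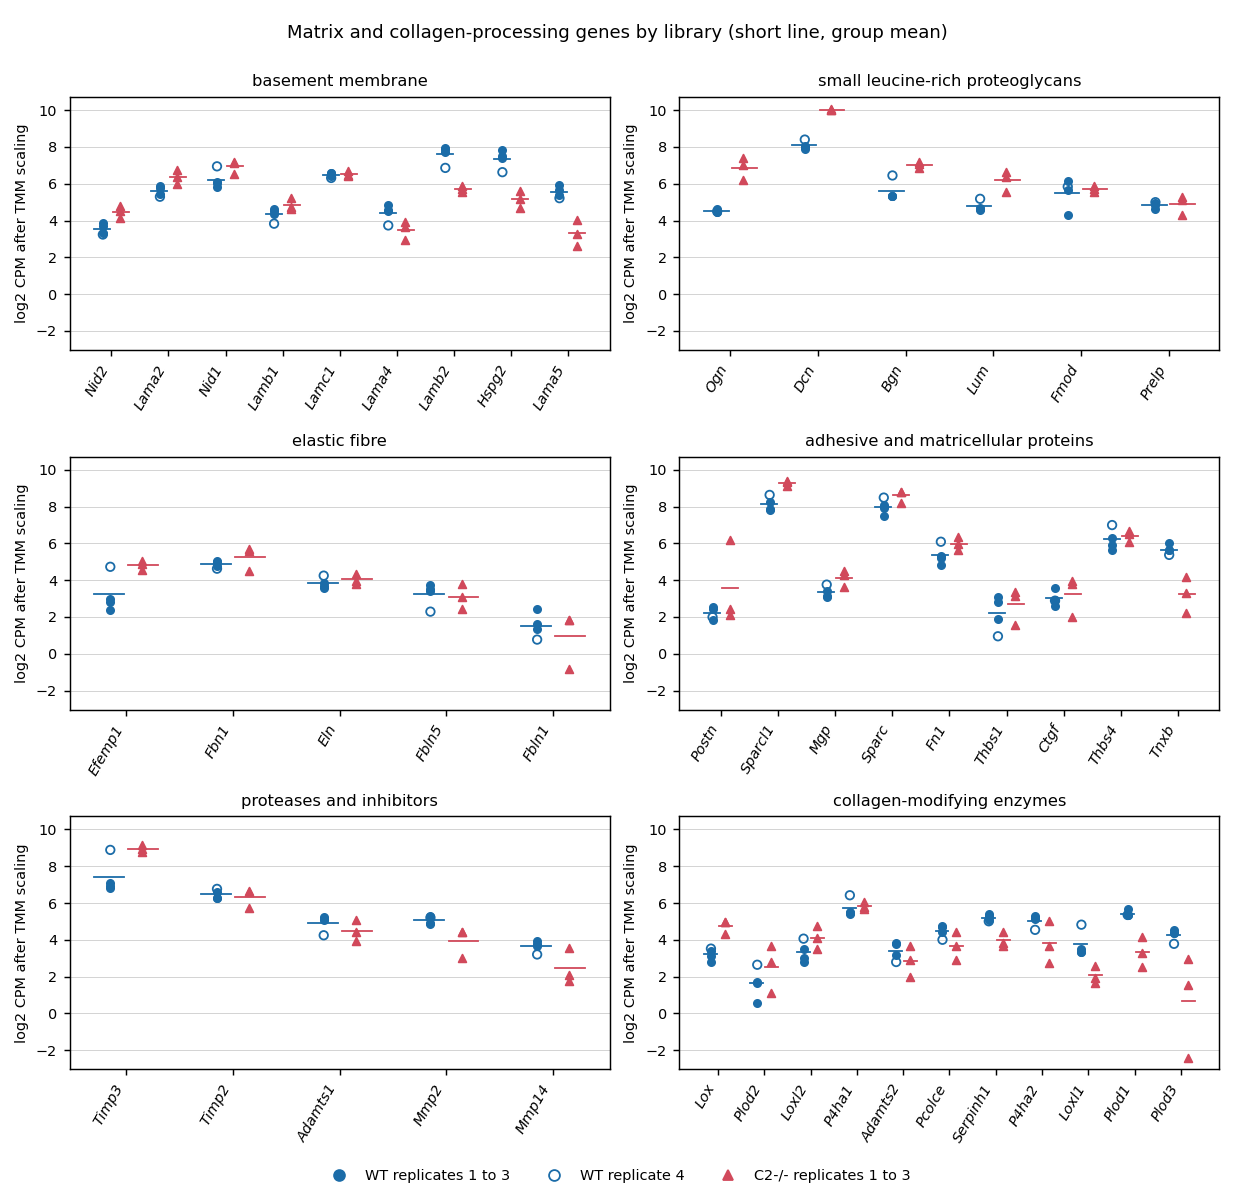
Level of each of the 45 measured matrix genes in every library, by class, on a log2 CPM axis after TMM scaling, with a short line at each group mean; filled circles are WT replicates 1 to 3, open circles WT replicate 4 and triangles the 3 C2-/- libraries. The 3 triangles of *Dcn* stand near 10, above every WT circle, and the open circle of WT replicate 4 lies among the triangles for *Timp3* and *Efemp1*.

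The 6 small leucine-rich proteoglycans bind collagen fibrils and set their diameter and spacing. *Ogn*, *Dcn*, *Bgn* and *Lum* (lumican) rose and none fell, beside 20.2% and 25.0% of all genes. The class median change was 1.43 (0.96 after the GC correction). The transcripts of *Ogn*, *Lum* and *Dcn* were under 50% GC, a band in which 36.3% of all genes rose. *Ogn* (chr13:49608046-49624501) stood at 4.45, 4.63, 4.46 and 4.50 in WT and at 7.01, 7.39 and 6.22 in C2-/-. The WT libraries were nearly level and every C2-/- library was higher, a 5.14-fold rise (log2 change 2.36, SE 0.26, adjusted p = 0.000302). *Dcn* (chr10:97479609-97518143) stood at 8.01, 8.04, 7.88 and 8.40 in WT and, in C2-/-, at 9.98 in replicate 1 and 10.08 in replicate 3 with replicate 2 between them. Its 3 C2-/- libraries were nearly level and above all WT libraries, a 3.84-fold rise (1.94, SE 0.16, adjusted p = 0.000162). Per kilobase of transcript *Dcn* had the highest level of all 45 genes in both groups, at a log2 CPM per kb of 7.27 in WT and 9.21 in C2-/-, while *Ogn* moved from rank 21 to rank 6.

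*Bgn* rose 2.70-fold (1.43, SE 0.28, adjusted p = 0.00296), with WT replicate 4 at 6.45, the other WT libraries at 5.32 to 5.35 and the C2-/- libraries at 6.86 to 7.18. *Lum* rose 2.67-fold (1.42, SE 0.28, adjusted p = 0.00317), from 4.59 to 5.18 in WT to 5.54 to 6.66 in C2-/-. *Fmod* (fibromodulin) differed by 0.22 (adjusted p = 0.649) and *Prelp*, which links basement membrane to interstitial matrix, by 0.04 (adjusted p = 0.912). Corrected for GC, the change of *Ogn* was 0.90 (adjusted p = 0.0416), that of *Dcn* 1.16 (adjusted p = 0.000969) and that of *Bgn* 2.03 (adjusted p = 0.00378). The corrected call of *Ogn* ended without WT replicate 1 (0.90), 2 (0.95), 3 (0.94) or 4 (0.80) or C2-/- replicate 1 (0.78) or 2 (0.67). *Lum*, at 0.54 (adjusted p = 0.167), was no longer past the threshold, and *Prelp* was, at 0.87 (adjusted p = 0.0452). *Ogn*, *Dcn*, *Bgn* and *Lum* were past the threshold in each of the 7 fits that left out 1 library.

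The basement membrane class was split between members that rose and members that fell. The nidogen *Nid2* and the laminin chain *Lama2*, the alpha chain of the main muscle laminin, rose. The laminin chains *Lama5*, *Lamb2* and *Lama4* and the perlecan gene *Hspg2* fell. Over all genes 20.2% rose and 25.0% fell. *Lama2* (chr10:26980036-27619758) stood at 5.78, 5.89, 5.46 and 5.29 in WT and at 6.38, 6.72 and 5.97 in C2-/-, a change of 0.76 (SE 0.23, adjusted p = 0.0218). *Nid2* (chr14:19751265-19811787) stood at 3.32, 3.85, 3.69 and 3.24 in WT and at 4.15, 4.78 and 4.54 in C2-/-, a change of 0.96 (SE 0.28, adjusted p = 0.0190). For both genes every C2-/- library exceeded every WT library, and the nearest libraries of the groups were close to each other for *Lama2*. Exons of *Rtraf* on the opposite strand share 8.96% of the exonic bases of *Nid2*.

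*Lama5*, the alpha chain found in synaptic and vascular basement membranes, stood at 5.37, 5.66, 5.93 and 5.22 in WT and at 4.03, 2.63 and 3.27 in C2-/-. It fell 4.71-fold (-2.24, SE 0.33, adjusted p = 0.00095), with no overlap between the groups. *Hspg2* stood at 7.38, 7.52, 7.84 and 6.63 in WT and at 5.58, 4.70 and 5.17 in C2-/-, and fell 4.57-fold (-2.19, SE 0.30, adjusted p = 0.000623). *Lamb2*, the beta chain concentrated at neuromuscular junctions and the class member with the highest WT level per kilobase, stood at 7.96, 7.73, 7.91 and 6.86 in WT and at 5.89, 5.53 and 5.71 in C2-/-. It fell 3.74-fold (-1.90, SE 0.26, adjusted p = 0.000649), and WT replicate 4 was the lowest WT library for all 3 genes. *Lama4*, the alpha chain of endothelial basement membranes, changed by -0.92 (adjusted p = 0.0497), with WT replicate 4 at 3.73 inside the C2-/- range of 2.92 to 3.90. *Lamb1* (0.54), *Lamc1* (0.07) and *Nid1* (0.72, adjusted p = 0.0544) were not past the threshold.

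With the GC correction no basement membrane gene was past the threshold as lower and 4 were higher, beside 8.33% and 12.3% of all genes. *Nid2* was at 1.91 (adjusted p = 0.00345), *Lamb1* at 1.14 (0.0139), *Nid1* at 0.96 (0.0442) and *Lamc1* at 0.77 (0.00529), with the adjusted p in parentheses. The corrected changes of *Lama5* (-0.57, adjusted p = 0.102), *Hspg2* (-0.42, adjusted p = 0.0960) and *Lamb2* (-0.35, adjusted p = 0.192) kept their sign without passing, as did those of *Lama2* (0.58, adjusted p = 0.105) and *Lama4* (-0.74, adjusted p = 0.128). On uncorrected values, leaving out 1 library ended the call of *Lama2* for WT replicate 3 (0.71) and C2-/- replicates 1 (0.75) and 2 (0.57). It ended that of *Nid2* for WT replicate 1 (0.90). It ended the call of *Lama4* for WT replicates 1 (-0.88), 2 (-0.87) and 3 (-0.78) and C2-/- replicates 2 (-0.999) and 3 (-0.63), and brought *Nid1* past the threshold without WT replicate 4 (0.96) or C2-/- replicate 3 (0.93).

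Among the elastic fibre genes only *Efemp1* (fibulin-3) was past the threshold. It stood at 2.84, 2.97, 2.35 and 4.73 in WT and at 4.88, 5.03 and 4.57 in C2-/-, a change of 1.60 (SE 0.50, adjusted p = 0.0236). WT replicate 4 lay inside the C2-/- range and apart from the other WT libraries. The microfibril gene *Fbn1* (0.39), elastin, *Eln* (0.20), and the fibulins *Fbln5* (-0.13) and *Fbln1* (-0.58), which tether elastin to microfibrils and matrix, were not past the threshold. On GC-corrected values *Efemp1* was at 1.06 (adjusted p = 0.126), whereas *Eln* at 1.75 (adjusted p = 0.0114) and *Fbn1* at 0.95 (adjusted p = 0.0366) were higher in C2-/-. The call of *Efemp1* ended without WT replicate 1 (1.47), 2 (1.52) or 3 (1.31) or C2-/- replicate 1 (1.58) or 2 (1.5002). On uncorrected values *Fbn1* was past the threshold without C2-/- replicate 3 (0.76).

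Of the 9 adhesive and matricellular proteins, *Sparcl1* rose and *Tnxb* fell. *Sparcl1* (hevin, chr5:104079111-104113733) stood at 7.82, 7.85, 8.24 and 8.64 in WT and at 9.31, 9.38 and 9.13 in C2-/-, a 2.21-fold rise with no overlap (1.14, SE 0.21, adjusted p = 0.00233). It was past the threshold after the GC correction too, at 1.04 (adjusted p = 0.00922), and in every fit that left out 1 library. *Tnxb*, whose product tenascin-X binds collagen fibrils in loose connective tissue, stood at 5.63, 6.00, 5.65 and 5.38 in WT and at 4.15, 2.23 and 3.30 in C2-/-. Every C2-/- library was lower, a 5.43-fold fall (-2.44, SE 0.39, adjusted p = 0.00129), which the GC correction reduced to -0.69 (adjusted p = 0.104).

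*Sparc*, osteonectin, a collagen-binding matricellular protein with the highest WT level per kilobase in its class, stood at 7.48, 7.91, 8.11 and 8.49 in WT and at 8.22, 8.80 and 8.81 in C2-/-. The groups overlapped and the change of 0.61 (SE 0.25, adjusted p = 0.0632) was not past the threshold. Fibronectin, *Fn1* (0.61, adjusted p = 0.112), and matrix Gla protein, *Mgp* (0.78, adjusted p = 0.0664), an inhibitor of calcification, were likewise not past it. All 3 were higher after the GC correction, *Sparc* at 1.21 (adjusted p = 0.0193), *Fn1* at 1.38 (adjusted p = 0.0213) and *Mgp* at 1.19 (adjusted p = 0.0370). On uncorrected values they were past the threshold without WT replicate 4 (0.78, 0.85 and 0.92 in that order). *Sparc* (0.81) and *Mgp* (1.05) were also past it without C2-/- replicate 1. *Postn* (periostin) stood at 6.18 in C2-/- replicate 2 and at 1.86 to 2.53 in the other 6 libraries, so that its change of 1.35 (adjusted p = 0.205) became 0.04 without that library. The thrombospondins *Thbs1* (0.49) and *Thbs4* (0.21) and connective tissue growth factor, *Ctgf* (0.23), were not past the threshold in either fit.

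Among proteases and their inhibitors the data showed 1 rise and 1 fall. *Timp3*, a TIMP that stays bound to matrix and has the highest level per kilobase in the class, stood at 6.90, 7.08, 6.84 and 8.89 in WT and at 9.14, 8.78 and 8.93 in C2-/-. Its change was 1.52 (SE 0.43, adjusted p = 0.0162), and WT replicate 4 lay inside the C2-/- range. Exons of *Syn3* on the opposite strand share 36.7% of the exonic bases of *Timp3*, and the use of strand in counting is not given in the sources used here. *Mmp2* (gelatinase A) stood at 4.90, 5.29, 4.84 and 5.21 in WT and at 4.43, 4.43 and 2.99 in C2-/-, a change of -1.11 (SE 0.35, adjusted p = 0.0269) with no overlap. *Mmp14*, the membrane-bound activator of the *Mmp2* product, changed by -1.16 (adjusted p = 0.0563), and *Adamts1* (-0.46) and *Timp2* (-0.13) were not past the threshold.

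None of the 5 was past the threshold after the GC correction, with *Timp3* at 1.22 (adjusted p = 0.0608) and *Mmp2* at -0.04 (adjusted p = 0.951). The call of *Timp3* ended without C2-/- replicate 1 (1.43) or 3 (1.53). That of *Mmp2* ended without WT replicate 2 (-1.03) or C2-/- replicate 3 (-0.63), and *Mmp14* was past the threshold without WT replicate 4 (-1.31) or C2-/- replicate 1 (-1.70).

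Of the 11 collagen-modifying enzymes 5 fell and 1 rose, beside 25.0% and 20.2% of all genes, with a median change of -0.80. The transcripts of *Plod1*, *Plod3*, *Serpinh1* and *Loxl1*, which fell, were above 56% GC, where 60.6% of all genes fell. On GC-corrected values 1 was lower and 1 higher, beside 8.33% and 12.3% of all genes. The corrected median was 0.09 and 7 of the 11 changes were positive. The falls covered lysyl hydroxylases (*Plod1* and *Plod3*), a prolyl hydroxylase subunit (*P4ha2*), the collagen chaperone HSP47 (*Serpinh1*) and a lysyl oxidase (*Loxl1*). *Plod1* (chr4:147909753-147936767) stood at 5.32, 5.37, 5.65 and 5.35 in WT and at 4.18, 2.54 and 3.30 in C2-/-, a 4.26-fold fall with no overlap (-2.09, SE 0.35, adjusted p = 0.00147). It was the only matrix gene of the 45 past the threshold as lower after the GC correction, at -0.87 (adjusted p = 0.0439), a call that ended without WT replicate 1 (-0.93), 2 (-0.91), 3 (-0.84) or 4 (-0.80) or C2-/- replicate 2 (-0.62) or 3 (-0.86). *Plod3* stood at 4.40, 4.51, 4.38 and 3.78 in WT and at 1.55, -2.42 and 2.96 in C2-/-, where it had 8, 0 and 37 reads. Its change of -3.57 (SE 1.004, adjusted p = 0.0158) was the largest in size of the 45 and had the largest SE, became -2.02 without C2-/- replicate 2, and was -2.14 (adjusted p = 0.123) after the GC correction. Exons of *Znhit1* on the opposite strand share 16.1% of the exonic bases of *Plod3*.

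*Serpinh1*, the class member with the highest WT level per kilobase, stood at 5.06, 5.28, 5.40 and 5.01 in WT and at 4.45, 3.85 and 3.65 in C2-/-. It fell 2.31-fold (-1.21, SE 0.25, adjusted p = 0.00392), and the GC correction left a change of 0.03 (adjusted p = 0.929). *Loxl1*, which cross-links elastin, changed by -1.69 (adjusted p = 0.0122) and by 0.09 (adjusted p = 0.916) after the correction, with WT replicate 4 at 4.82 and the other WT libraries at 3.33 to 3.53. *P4ha2* changed by -1.22 (adjusted p = 0.0485), with groups that overlapped and a corrected change of -0.33 (adjusted p = 0.585). The call of *P4ha2* ended without WT replicates 1 (-1.13), 2 (-1.20) or 3 (-1.17) or C2-/- replicates 2 (-1.16) or 3 (-0.69).

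*Lox*, the lysyl oxidase that cross-links collagen and elastin (chr18:52516067-52529867), was the collagen-modifying gene that rose. It stood at 3.41, 3.15, 2.82 and 3.52 in WT and at 4.98, 4.32 and 4.99 in C2-/-, a 2.90-fold rise with no overlap (1.54, SE 0.30, adjusted p = 0.00281). The rise was past the threshold in every fit that left out 1 library and after the GC correction, at 0.88 (adjusted p = 0.0469). The corrected call ended without WT replicate 1 (0.96), 2 (0.87) or 3 (0.78) or C2-/- replicate 1 (0.75) or 3 (0.79). *Plod2* (0.88), *Loxl2* (0.78), *P4ha1* (0.12), the procollagen N-proteinase *Adamts2* (-0.53) and the procollagen C-proteinase enhancer *Pcolce* (-0.80) were not past the threshold in either fit. *Loxl2* was past it without WT replicate 4 (1.02) and *Pcolce* without C2-/- replicate 2 (-1.17).

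**Figure D2:**
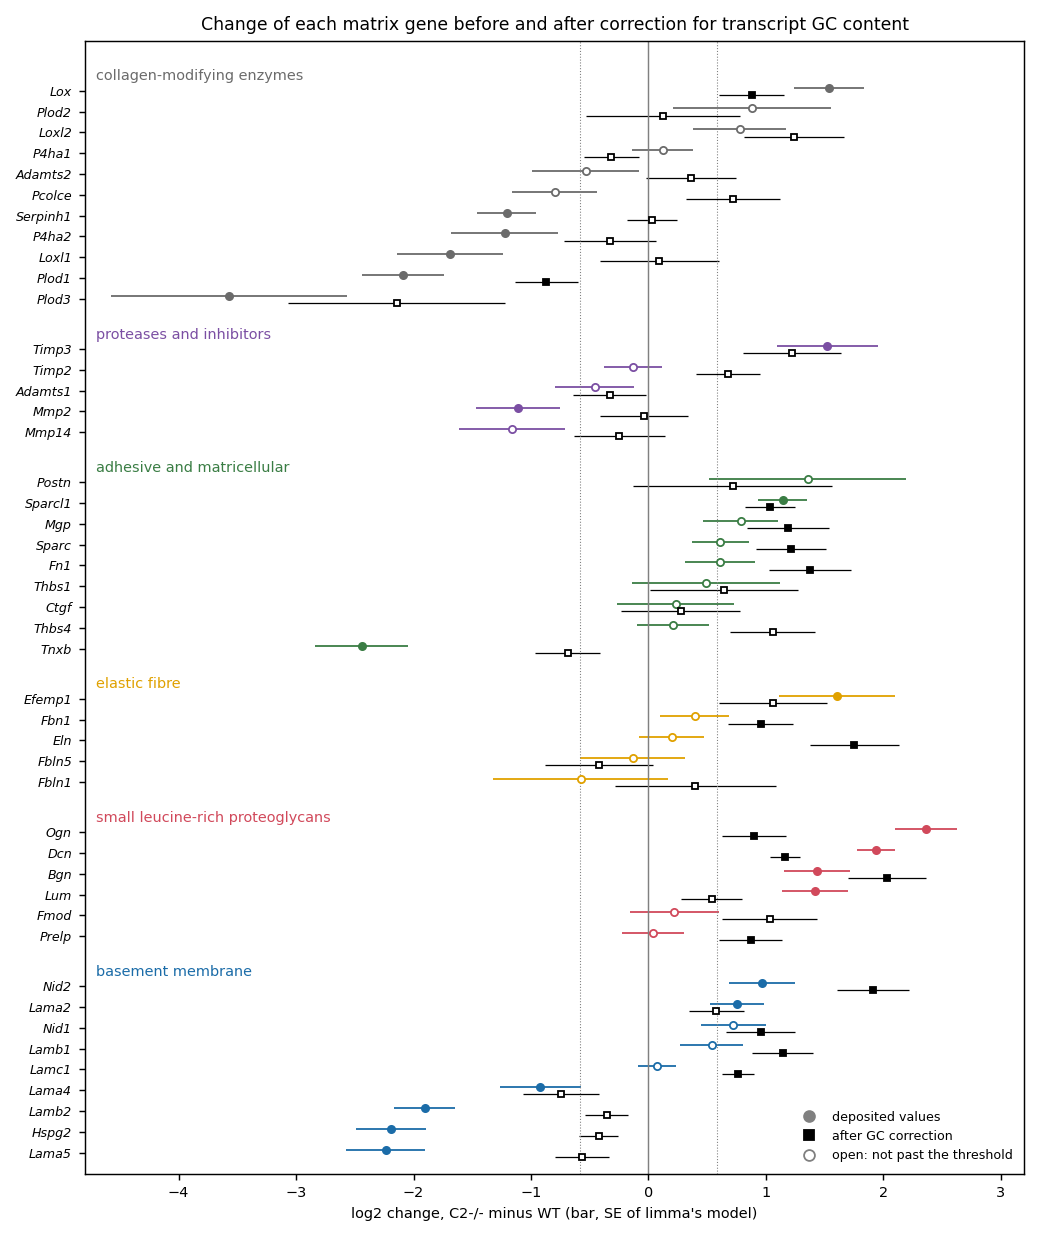
Log2 change (C2-/- minus WT) of each of the 45 genes by class, from the deposited values (circles) and after the GC correction (black squares), with bars of 1 SE of limma's model, dotted lines at the 1.5-fold limits and open symbols for genes not past the threshold. The squares of *Lama5*, *Hspg2*, *Lamb2* and *Tnxb* are open, between -0.69 and -0.35, although their circles lie between -2.44 and -1.90, whereas *Ogn*, *Dcn*, *Bgn*, *Nid2*, *Sparcl1* and *Lox* have filled symbols on the right in both.

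Within the list the change followed transcript GC content as it did in the table as a whole. Spearman's rho was -0.80 over the 45 genes, which share the same 7 libraries, against -0.68 over the 12174 genes, and -0.30 against -0.01 after the correction. Of the 10 matrix genes with a transcript GC content above 56%, 8 fell and 0 rose. Of the 2348 genes of the table in that band, 60.6% fell and 1.75% rose. Of the 15 matrix genes under 50%, 8 rose and 0 fell, beside 36.3% and 4.93% of 5967 genes. The 10 that rose had a GC content of 36.3% to 54.6% (median 45.8%), and the 11 that fell of 50.03% to 61.0% (median 57.8%). Of the 20 matrix genes between 50% and 56%, 2 rose (*Bgn* and *Nid2*) and 3 fell (*Lama4*, *Mmp2* and *P4ha2*), beside 6.66% and 34.3% of 3859 genes.

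**Figure D3:**
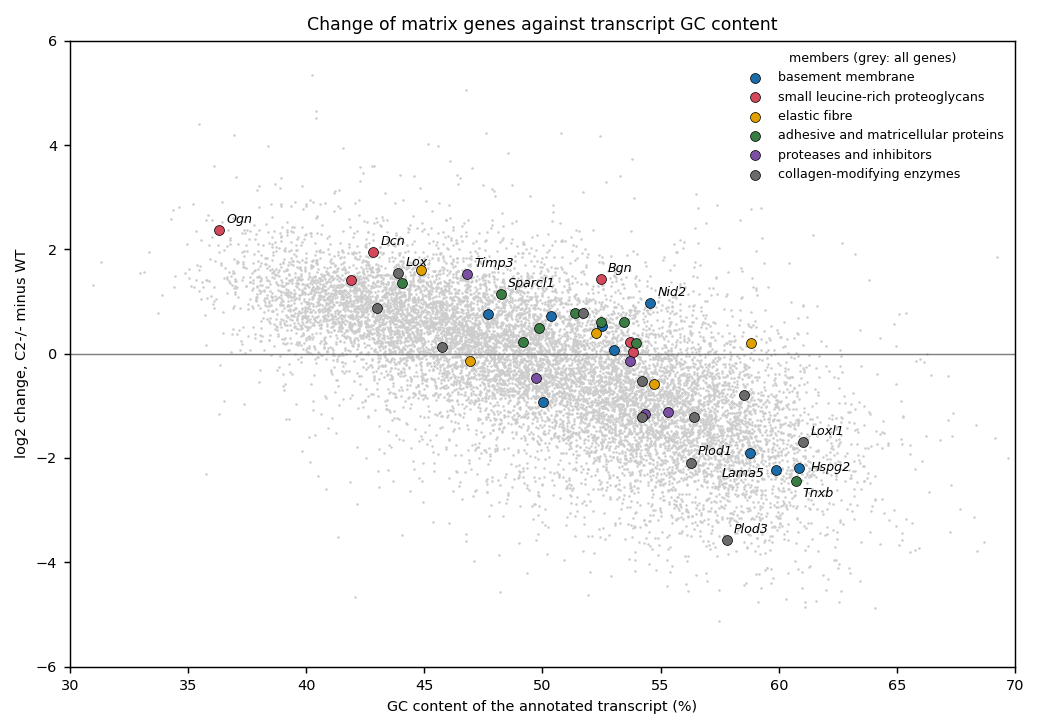
Log2 change (C2-/- minus WT) against transcript GC content for the 45 matrix genes, coloured by class, over 12170 of the 12174 annotated genes in grey, with 4 genes outside the axes, *Mybpc2* among them. *Ogn*, at 36.3% GC and 2.36, stands at the low-GC end and *Loxl1*, at 61.0% GC and -1.69, at the high-GC end, and *Plod3*, at 57.8% GC and -3.57, is the lowest of the matrix genes.

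WT replicate 4 was the only WT library under 5000000 reads, the depth range of the C2-/- libraries. It was closer to the average of C2-/- than to that of WT replicates 1 to 3 for 21 of the 45 genes (46.7%, against 38.1% of all genes), and inside the C2-/- range for *Lama4*, *Efemp1*, *Timp3* and *P4ha2* among the genes past the threshold. When the 3 C2-/- libraries were compared with WT replicate 4 alone, which is then assumed to vary as they do, *Dcn* (1.62, adjusted p = 0.00603) and *Ogn* (2.37, adjusted p = 0.00529) rose, against 2.56% of all genes, and *Hspg2* (-1.48, adjusted p = 0.0481) fell, against 1.97%, so that 3 of 45 were called where 4.53% of all genes were. *Timp3* differed by 0.06 and *Efemp1* by 0.10 in that comparison. *Bgn* differed by 0.60 and *Sparcl1* by 0.64, beside 1.43 and 1.14 against all WT libraries. For each of these genes WT replicate 4 was closer to the C2-/- average than to that of WT replicates 1 to 3. All 21 genes past the threshold in the main fit kept their direction. With the GC correction as well, 0 of the 45 genes and 0.550% of all genes were past the threshold, so that this fit says little about the matrix genes.

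Markers of the cells that make and border the matrix were read beside these results. The 10 fibroblast and fibro-adipogenic progenitor markers were all measured, and their summed level was 431 to 674 CPM in WT and 371 to 420 CPM in C2-/-. Of these, the receptor gene *Pdgfra* (0.82) and *Ly6a* (0.62) rose, whereas *Pi16* (-2.21), *Clec3b* (-1.52) and *Gsn* (-1.17) fell. None of these 5 calls remained after the GC correction, with corrected changes of 0.70, 0.49, -1.20, 0.18 and 0.16 in that order. In the corrected fit *Serpinf1* (1.46, adjusted p = 0.0116) was higher. The median change of the list was -0.04 before the correction and 0.10 after it. *Gsn* made up 46.04% to 69.6% of the sum in WT and 33.0% to 48.4% in C2-/-, and without it the sums overlapped, at 205 to 233 CPM and 192 to 266 CPM. The summed level of 5 tenocyte markers was 9.76 to 25.5 CPM in WT and 16.8 to 37.7 CPM in C2-/-, with *Tnmd* and *Chad* higher, *Scx* lower and *Comp* at 0 reads in at least 1 library. The 9 endothelial markers summed to 430 to 626 CPM in WT and 339 to 445 CPM in C2-/- (1 rose, 3 fell), and the 8 smooth muscle and pericyte markers to 272 to 400 CPM and 262 to 459 CPM (0 rose, 2 fell). The 5 Schwann cell markers summed to 54.9 to 124 CPM and 64.0 to 95.5 CPM (0 rose, 1 fell). For tenocytes, endothelium, smooth muscle and Schwann cells the groups thus overlapped.

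The 9 macrophage markers summed to 61.4 to 86.2 CPM in WT and 69.1 to 110 CPM in C2-/- (2 rose, 2 fell, with *C1qa* and *C1qc* at 0 reads in at least 1 library). The 5 satellite cell markers summed to 26.2 to 61.7 CPM and 30.6 to 38.5 CPM (2 rose, 1 fell, with *Pax7* at 0 reads in at least 1 library). The 4 measured adipocyte markers summed to 159 to 365 CPM in WT and to 471 to 633 CPM in C2-/-, and WT replicate 4 was the highest WT library. *Fabp4* made up at least 96.1% of this sum in every library, so the sum follows that gene, whose change was 1.47 and past the threshold, and 0.41 (adjusted p = 0.221) after the GC correction. The 12 fast muscle fibre markers, which mark the fast fibres of TA, were present in all libraries and summed to 217055 to 252318 CPM in WT and 113083 to 173597 CPM in C2-/- (0 rose, 6 fell). After the GC correction 1 of the 12 was higher and 2 were lower, and the median change moved from -0.74 to 0.15. Of 5 red blood cell markers 1, *Alas2*, was measured, and it fell, without passing after the GC correction. In the other lists the corrected calls were 1 higher for tenocytes (*Chad*), 1 lower for endothelium (*Esam*), 1 higher for smooth muscle (*Myh11*), 0 for Schwann cells, 1 higher for macrophages (*Cd163*), 1 higher for adipocytes (*Plin1*) and 1 lower for satellite cells (*Sdc4*). The part of cell composition in the changes of the matrix genes was not tested.

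**Figure D4:**
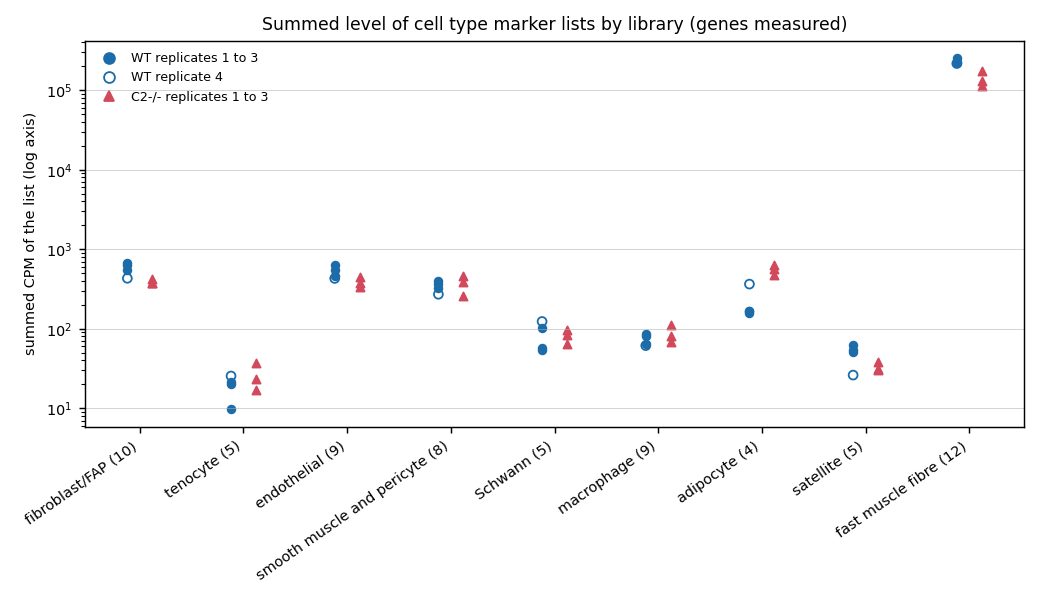
Summed CPM, on a log axis, of the measured genes of 9 cell type marker lists in each library, with the number of genes in parentheses; filled circles are WT replicates 1 to 3, open circles WT replicate 4 and triangles C2-/-. The groups do not overlap for the fibroblast and fast fibre lists, which are lower in C2-/-, or for the adipocyte list, which is higher, although *Gsn* carries the first of these gaps and *Fabp4* the last.

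A wider list of 107 other matrix genes, of which 89 were measured, had 11 members that rose (20.2% of all genes did) and 24 that fell (25.0%), with a median change of -0.44. After the GC correction 12 were higher (12.3% of all genes) and 6 lower (8.33%), with a median of 0.09. By class, 4 of 7 further proteoglycans and leucine-rich matrix proteins, among which the large proteoglycan versican (*Vcan*, 0.37, adjusted p = 0.680) was counted, rose and 0 fell (2 higher and 0 lower with the GC correction). Of 11 elastic fibre genes 1 rose and 7 fell, and with the correction 1 was higher and 1 lower, with a median of -1.52 before and 0.24 after it. Of 14 collagen-modifying genes 1 rose and 4 fell (2 higher and 1 lower with the correction, median -0.79 before and 0.11 after). Of 11 basement membrane genes 1 rose and 2 fell (3 higher and 0 lower), and of 12 adhesive proteins 2 rose and 1 fell (1 higher and 0 lower). Of 13 proteases and inhibitors 0 rose and 3 fell (1 higher and 0 lower), and of 21 matrix receptors 2 rose and 7 fell (2 higher and 4 lower). The wider list shares *Dpt* with the fibroblast markers, *Chad*, *Comp* and *Kera* with the tenocyte markers and *Sdc4* with the satellite cell markers.

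The 3 largest rises of the wider list were *Omd* (osteomodulin, 3.60, adjusted p = 0.00432), *Aspn* (asporin, 2.75, adjusted p = 0.000846) and the lysyl oxidase *Loxl4* (2.13, adjusted p = 0.0269). *Omd* rested on few reads, at most 10 in a WT library and at most 15 in C2-/-. After the GC correction *Aspn* (1.10, adjusted p = 0.0380) and *Loxl4* (3.39, adjusted p = 0.00679) were past the threshold and *Omd* (2.12, adjusted p = 0.0813) was not. The 3 largest fitted falls, whose order depends on the 0.5 reads added because genes had 0 reads in C2-/- libraries, were the collagen-binding integrin *Itga10* (-3.35, adjusted p = 0.00444), *Emilin1* (-3.30, adjusted p = 0.0266), an elastic fibre glycoprotein, and the laminin chain *Lamc3* (-3.01, adjusted p = 0.0117). *Itga10* and *Lamc3* had 0 reads in every C2-/- library, so their falls were at least 1.33-fold and at least 1.12-fold against the highest level that 3 reads gave in a C2-/- library, 1.12 CPM. By that measure the fall of *Efemp2* (fibulin-4, -2.91), which is outside the 3 and was looked at after its values were seen, was at least 3.35-fold. *Emilin1* had 0, 0 and 17 reads in C2-/- and 8 to 128 in WT, and its groups overlapped. Its call ended without WT replicate 1 (-3.18), 2 (-3.25) or 3 (-3.04) or C2-/- replicate 1 (-2.55) or 2 (-2.61). The call of *Loxl4* ended without WT replicate 1 (2.08) or 3 (2.08) or C2-/- replicate 3 (2.05), and that of *Lamc3* without WT replicate 1 (-2.90) or 3 (-2.80). After the correction *Itga10* (-2.52, adjusted p = 0.0285) was lower, and *Emilin1* (-1.52) and *Lamc3* (-1.51) were not past the threshold.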

How the data were processed

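RNA of TA muscle from 4 WT and 3 C2-/- mice was analysed. The authors aligned reads to GRCm38.p6 with HISAT, counted them per gene with featureCounts 1.5.2 and applied TMM factors from edgeR, per the submitters' processing notes. The authors deposited the result as log2 values, 1 column per library. Each value was the log2 of the reads plus 0.5 for every 1e6 reads of effective library size. Reads were recovered from it, and 100% of the values came out whole within 0.0001 reads. A second deposited table held the authors' own comparison (log2 fold changes, mean levels, moderated t values, p-values and log-odds) and was not used. The filter on low genes, the treatment of multiply mapped reads and strand in counting are not given in the sources used here.

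Groups came from the sample titles. Genotypes were compared with limma 3.58.1 (lmFit, then eBayes with a mean-variance trend, R 4.3.3) on the log2 values of all 7 libraries, with genotype as the only term, two-sided, and Benjamini-Hochberg adjustment over 12239 genes. Past the threshold means an adjusted p under 0.05 and a fold above 1.5. Because 0.5 reads were added, falls to few reads are understated. GC-corrected values had the curve of log2 value on transcript GC content (natural spline, 5 degrees of freedom), fitted in each library, exchanged for the average curve. GC content and positions came from GENCODE M21, matched for 12174 genes (99.5%), 356 of them by an older symbol. Level per kilobase used the same transcripts. The script was tested on simulated data.

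The members and the marker and wider lists were chosen with earlier results of these data known. All members are named. Values in every library are given for up to 2 rises and 2 falls per class, the largest past the threshold, and for the highest WT level per kilobase. The wider list is given by counts and its 3 largest rises and falls. Alternatives covered normalization, low-value filters, the offset, the variance model (voom on recovered reads among them), GC and length, the replicate number as a block, depth, the threshold and each library left out. All pairs of libraries within a group differed by more than sampling noise (chi-square per degree of freedom at least 9.13), and the libraries were counted as 7 samples.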

Additional observations from a re-analysis of the deposited data

Results flagged for a closer look

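Among the 4 WT libraries, 7 of 46 values (45 matrix genes and *Mybpc2*) had 1 library far from the other 3 by Dixon's criterion. At 1 in 20 about 2.3 independent values would be singled out, but these genes share libraries, and the share over all genes was not counted. Across genes, chi-square per degree of freedom was 56.1 to 63.6 between WT replicate 4 and the other WT libraries. Among those others it was 9.13 to 19.3. WT replicate 4 was the library in 6 of the 7. It was the highest for *Bgn* (6.45 log2 CPM, the others 5.32 to 5.35), *Lum* (5.18, the others 4.59 to 4.68), *Timp3* (8.89, the others 6.84 to 7.08), *P4ha1* (6.42, the others 5.41 to 5.54) and *Loxl1* (4.82, the others 3.33 to 3.53). It was the lowest for *Adamts1* (4.25, the others 5.09 to 5.23). For *Plod1*, WT replicate 3 was at 5.65 and the others at 5.32 to 5.37. WT replicate 4 was also the only WT library under 5000000 reads, and the part of depth in these values was not tested.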

How the results depend on the processing

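Of 1030 values of single matrix genes under alternatives, 786 kept direction and side of the threshold, 53 changed sign with no call in either fit, 65 became past the threshold, 114 lost it and 12 changed sign with a call in either fit. Called as higher, against 10, were 6 at an adjusted p under 0.01 (11.9% of all genes), 2 against WT replicate 4 alone (2.56%) and 20 with the replicate block and GC correction (14.8%). Called as lower, against 11, were 6 (14.4%), 1 (1.97%) and 0 (9.19%) in the same order, 1 with the GC correction (8.33%) and 0 with GC and length (8.27%). Voom on recovered reads gave 13 and 13, and over all genes 2771 higher (22.6%) and 3244 lower (26.5%). Leaving out 1 library gave 8 to 15 higher (15.5% to 23.5% of all genes), with 15 without WT replicate 4, and 8 to 12 lower (17.9% to 26.6%). The next settings were chosen after seeing the data. Leaving out 1 library with the GC correction gave 7 to 19 higher, against 15 with all libraries (6.81% to 15.97% of all genes). It gave 0 to 3 lower (3.499% to 9.74% of all genes), 3 of them without C2-/- replicate 1. Libraries under 5000000 reads with the GC correction gave 0 higher (0.386% of all genes) and 0 lower (0.164%) in the limma fit. There *Lamb2* was at 0.0295, *Efemp1* at -0.31 and *Timp3* at -0.18. Signs also turned for *Serpinh1* (0.0328 with GC, 0.0766 with GC and length, 0.0716 with block and GC), *Loxl1* (0.0919, 0.21 and 0.59 likewise), *Mmp2* (0.0597 with GC and length, 0.0967 with block and GC) and *Timp2* (0.84 with block and GC). The cause was not tested. The median change of the basement membrane class was 0.07, and -0.08 after quantile normalization. *Mybpc2* stayed at -12.26 to -10.73.

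Equal replicate numbers did not pair the samples (r of deviations 0.05, -0.06 and -0.05 for numbers 1 to 3). The replicate block gave 14 higher (21.7% of all genes) and 13 lower (26.5%), from 6 libraries, since WT replicate 4 has no partner. Depth limits the low genes, as 3 reads stood at up to 1.12 CPM in C2-/-.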

Other observations

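The small leucine-rich proteoglycan genes include neighbours on chromosomes 13 and 10 of GRCm38. On chr13, in the order *Ecm2* (chr13:49504810-49532789), *Aspn* (chr13:49544443-49567565), *Omd* (chr13:49582462-49592822) and *Ogn* (chr13:49608046-49624501), all 4 genes rose in C2-/-, with log2 changes of 1.80, 2.75, 3.60 and 2.36. After the GC correction *Aspn* (1.10, adjusted p = 0.0380) and *Ogn* (0.90, adjusted p = 0.0416) were past the threshold in limma's fit, and *Ecm2* (0.74, adjusted p = 0.130) and *Omd* (2.12, adjusted p = 0.0813) were not. The transcripts of the 4 genes are all low in GC, at 40.3%, 34.3%, 36.1% and 36.3%. On chr10, *Dcn* (1.94) and *Lum* (1.42) rose, and *Kera* (keratocan, chr10:97606879-97613692), which follows *Lum*, differed by 0.12 (adjusted p = 0.914). The cluster was looked at after the values of its members were seen.

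In the wider list the basement membrane collagens *Col4a1* (0.07) and *Col4a2* (-0.45) were not past the threshold in the deposited values, and after the GC correction they were higher in C2-/-, at 1.48 (adjusted p = 0.0214) and 1.29 (adjusted p = 0.0124). *Col15a1*, a collagen of the basement membrane zone, was higher in both, at 1.20 (adjusted p = 0.00537) and 2.43 (adjusted p = 0.00136). The muscle laminin receptor subunit *Itga7* was lower in both, at -2.71 (adjusted p = 0.000414) and -1.29 (adjusted p = 0.00709), as was the collagen receptor *Ddr1*, at -2.60 (adjusted p = 0.000334) and -0.94 (adjusted p = 0.0320). The syndecan *Sdc2* was higher in both, at 1.74 (adjusted p = 0.000427) and 0.82 (adjusted p = 0.0263). These genes were chosen after their values were seen.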
